A study of Mus musculus with 28 samples.

Results

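Osteoclasts are the large multinucleated cells that dissolve bone. They arise by fusion of precursors of the monocyte and macrophage lineage under the cytokines M-CSF and RANKL, and the transcription factor NFATc1 switches on most of their effector genes. Those effectors include receptors, fusion proteins, proton pumps and collagen-cleaving enzymes, several of which macrophages outside bone can also make. The 10 genes described here, chosen by their low level in 5-FU-treated tumors against PBS-treated tumors, are Nfatc1, Oscar, Calcr, Dcstamp, Ocstamp, Atp6v0d2, Acp5, Ctsk, Slc9b2 and Rufy4. They are 10 of the 55341 gene names in the count matrices, and all 10 passed the filter on low counts. Comparisons of these genes that hold the PBS or the 5-FU tumors are therefore given as values without a test.

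The tumors came from AB1-HA, a mouse mesothelioma line that grew under the skin of female BALB/c.AusBP mice aged 8 to 10 weeks, and treatment began at an area of 20 to 25 mm2. The groups were PBS (4 tumors), ICB (5), 5-FU (5), cisplatin (4), 5-FU+ICB (5) and cisplatin+ICB (5). 5-FU, a uracil analog, was given intravenously at 75 mg/kg, and cisplatin, a DNA crosslinker, intraperitoneally at 6 mg/kg. ICB was 100 µg of anti-CTLA-4 with 100 µg of anti-PD-L1, both intraperitoneal, followed by 2 later doses of anti-PD-L1, and all 28 whole tumors were taken 7 days after treatment began. Each RNA sample was a mixture of every cell in a whole tumor of 1 cell line, so fewer cells of a type and less RNA per cell cannot be told apart.

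Total counts ran from 23541733 to 33950805 per tumor, and 3 counts, taken as the floor, corresponded to 0.0822 to 0.159 CPM (counts scaled to a common library total), a limit that covers counting error only. The 8 macrophage markers were above that floor in every tumor, whereas 5 of 9 osteoblast and osteocyte markers (Bglap, Bglap2, Ibsp, Mepe and Sost) were at or under it in all 28 tumors, so these were not detected. The osteoblast and osteocyte list was not empty, however, with sums of 8.31 to 19.7 CPM in PBS and 7.59 to 13.7 CPM in 5-FU tumors, mainly from Dmp1 (means 7.02 and 4.39 CPM) and Phex (5.21 and 4.67 CPM), beside Alpl (0.369 and 1.13 CPM). Sp7, the osteoblast transcription factor, reached at most 0.178 CPM, in the 5-FU group. Mitochondrial genes took 1.03% to 16.1% of the counts, the highest share being that of 5-FU+ICB replicate 5, and the summed skeletal muscle markers ran from 1.61 to 4357 CPM. Replicate 1 of the cisplatin+ICB group stood apart from its group, with the M-CSF receptor Csf1r at 54.3 CPM against a group median of 413 CPM. Values without it are given beside the results that it moved most. The labels name no batch, and p-values measure the spread between the tumors of a group.

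Because the 10 genes include known NFATc1 targets, the DNA before their start sites is shown for comparison. Start sites were taken from RefSeq (GRCm38.p6), which matched 6 of the 10 genes in the table used. Shown are the 250 bases before the start of the 4 genes with 1 listed start, 5′ to 3′ on the strand of the gene, with matches to 5 searched motifs in capitals. The windows are chr7:3616158-3616407 on the minus strand for Oscar, and chr3:135307450-135307699 for Slc9b2, chr1:74125291-74125540 for Rufy4 and chr3:95498960-95499209 for Ctsk, all on the plus strand.
Oscar: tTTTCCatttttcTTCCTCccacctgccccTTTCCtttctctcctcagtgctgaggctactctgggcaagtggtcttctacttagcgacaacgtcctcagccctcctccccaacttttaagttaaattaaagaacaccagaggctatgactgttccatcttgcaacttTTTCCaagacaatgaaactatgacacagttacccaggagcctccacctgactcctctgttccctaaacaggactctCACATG
Slc9b2: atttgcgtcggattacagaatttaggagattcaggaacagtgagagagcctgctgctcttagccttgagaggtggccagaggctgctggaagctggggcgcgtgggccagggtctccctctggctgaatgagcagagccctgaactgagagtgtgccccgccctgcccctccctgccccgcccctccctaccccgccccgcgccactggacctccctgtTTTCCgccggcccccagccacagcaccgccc
Rufy4: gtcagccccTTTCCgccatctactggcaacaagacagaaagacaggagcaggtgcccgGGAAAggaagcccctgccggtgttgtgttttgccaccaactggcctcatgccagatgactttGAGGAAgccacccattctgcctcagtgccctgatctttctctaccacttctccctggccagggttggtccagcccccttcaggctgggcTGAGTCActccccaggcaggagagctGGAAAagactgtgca
Ctsk: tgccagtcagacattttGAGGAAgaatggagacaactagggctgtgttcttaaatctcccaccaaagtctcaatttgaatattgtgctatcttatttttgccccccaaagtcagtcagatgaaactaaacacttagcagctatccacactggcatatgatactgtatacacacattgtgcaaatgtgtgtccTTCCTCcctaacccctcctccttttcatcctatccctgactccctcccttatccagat

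The motifs were the NFAT core GGAAA, the PU.1 core GAGGAA, the AP-1 site TGANTCA and the E-boxes CACGTG and CATGTG bound by MITF and TFE proteins, each searched on both strands, and the NFAT and PU.1 cores share letters, so that a match to GAGGAA followed by A counts for both. Oscar had 3 matches to the NFAT core, 1 to the PU.1 core and 1 to the E-box CATGTG. Rufy4 had 3 NFAT cores, 1 PU.1 core and 1 AP-1 site, Slc9b2 had 1 NFAT core, and Ctsk had 2 PU.1 cores and no NFAT core in this window. Over the 32817 windows of this length in the table, 55.6% held the NFAT core, 23.3% the PU.1 core, 6.75% the AP-1 site, 6.02% CACGTG and 12.3% CATGTG. Acp5 has 3 listed starts and Calcr 2, and counting those, 7 of the 9 windows of these genes held the NFAT core, 3 the PU.1 core, 1 the AP-1 site, 0 CACGTG and 2 CATGTG. These are letter matches and not measured binding sites.

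In the comparison of 5-FU with PBS, which chose the genes, all 10 had log2 fold changes below 0, from -3.47 for Oscar to -0.29 for Nfatc1, with a median of -2.73 against -0.01 over the 17916 genes tested. For 8 of the 10, every 5-FU tumor lay under every PBS tumor, a pattern that 17.8% of all genes tested showed. A gene was called when edgeR's adjusted p-value was under 0.05 and its absolute log2 fold change over 0.5, and 13.0% of all genes were called lower and 9.98% higher in 5-FU tumors. Scaled by library size alone, 3197 genes were called, 1192 of them lower, against 2327 lower of 4115 with the trimmed-mean (TMM) scaling used throughout. Since the genes were selected on this contrast, nothing is read from these shares. Under library size alone the median fold change of all genes moved from -0.01 to 0.11 on the log2 scale, and the 10 genes kept values below 0 under this scaling, under DESeq2's size factors and with all 6 groups in 1 model.

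**Figure D1:**
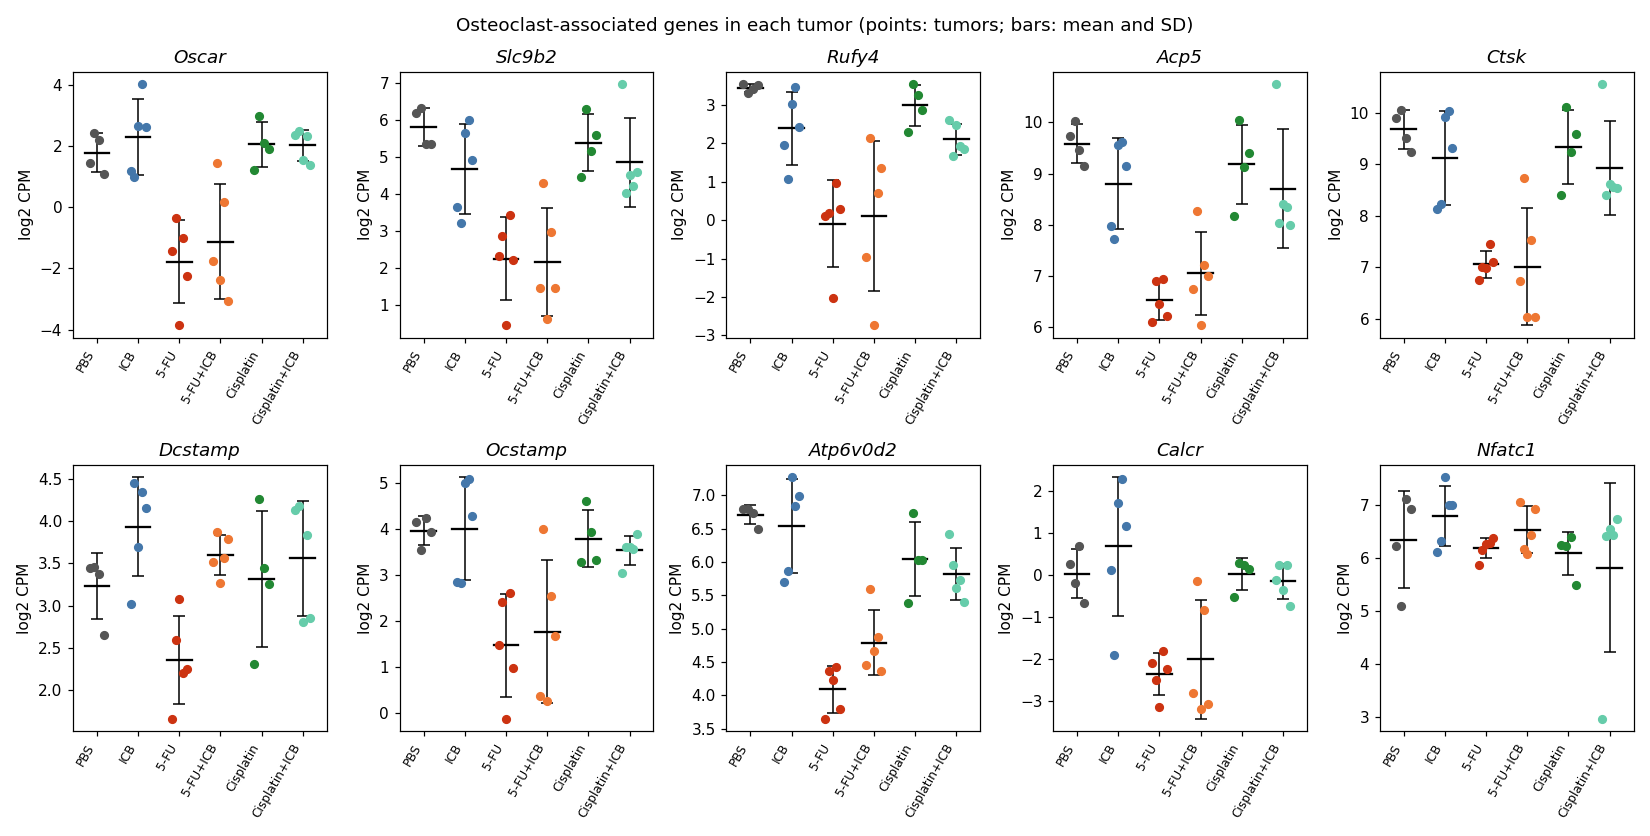
Expression of the 10 genes as log2 CPM (prior count 2, y axes, which do not start at 0) in each of 28 tumors by treatment group (x axes), where points are tumors and black bars the mean and SD. The 5-FU tumors lie under every PBS tumor in 8 panels and the mean of the 5-FU+ICB tumors is also low there, although replicate 2 of that group reaches the PBS range for Oscar, Ocstamp and Calcr. Nfatc1 shows no such drop, and Dcstamp is low in 5-FU but not in 5-FU+ICB tumors.

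Nfatc1, the transcription factor that drives osteoclast differentiation and also acts in other cells, had the fold change nearest to 0. Its level was 75.3, 34.1, 140 and 122 CPM in the 4 PBS tumors and 58.8, 71.5, 77.3, 77.6 and 83.1 CPM in the 5-FU tumors. The 5-FU tumors all lay inside the PBS range, and the means were 92.7 ± 47.6 (SD, n = 4) and 73.6 ± 9.29 CPM (SD, n = 5). Acp5, Ctsk, Oscar and Dcstamp, commonly cited as its targets, had fold changes of -3.06, -2.64, -3.47 and -0.84.

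Among the receptors, Oscar (chr7:3609813-3616157), a collagen-binding receptor that gives osteoclast precursors a costimulatory signal, was at 2.64, 5.29, 4.45 and 2.03 CPM in PBS tumors. The 5-FU tumors had 0.301, 0.719, 0, 0.428 and 0.143 CPM. No tumor of the 5-FU group came near the PBS range, and 1 of them was at or under the floor. Calcr (chr6:3685680-3764714), the receptor for calcitonin, a hormone that halts resorption, was at 1.14, 0.814, 1.55 and 0.565 CPM with PBS and 0.164, 0.108, 0.0445, 0.214 and 0.143 CPM with 5-FU. Its groups did not overlap, but 2 of the 5-FU tumors were at or under the floor, so the fitted log2 fold change of -2.83 rests on few counts.

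Dcstamp and Ocstamp are membrane proteins needed for precursor fusion. Dcstamp (chr15:39745930-39760938) was at 10.8, 10.9, 10.3 and 6.21 CPM in PBS tumors and at 3.10, 5.97, 8.37, 4.55 and 4.70 CPM in 5-FU tumors. One group reached into the other through the lowest PBS tumor and the highest 5-FU tumor, replicate 3. Ocstamp (chr2:165393760-165400405) was at 17.6, 11.6, 18.8 and 15.3 CPM with PBS and at 2.71, 5.28, 0.846, 5.99 and 1.90 CPM with 5-FU. Here the groups were apart, with means of 15.8 ± 3.17 (SD, n = 4) and 3.35 ± 2.21 CPM (SD, n = 5).

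A further 3 genes act in acid secretion and matrix breakdown. Acp5 (chr9:22126727-22135711), tartrate-resistant acid phosphatase, the classical stain for osteoclasts, was at 845, 1036, 700 and 564 CPM in PBS tumors and at 69.0, 120, 87.5, 123 and 74.3 CPM in 5-FU tumors. The means differed 8.31-fold and the 2 groups were far apart. An antisense transcript, 6530413G14Rik, overlaps exons of Acp5. Since strand was not stated for the counting, reads from the shared stretch cannot be told apart, and how far that stretch reaches was not measured. Ctsk (chr3:95499256-95509362), the protease that cleaves bone collagen, was at 962, 1063, 729 and 603 CPM with PBS and at 108, 128, 127, 176 and 138 CPM with 5-FU. The lowest PBS tumor stood above the highest 5-FU tumor, and the means differed 6.20-fold. Atp6v0d2 (chr4:19876841-19922605), a subunit of the membrane sector of the proton pump (V-ATPase) that is induced in osteoclasts, was at 111, 111, 107 and 90.2 CPM with PBS and at 12.5, 20.5, 18.7, 21.4 and 13.7 CPM with 5-FU. Both of its groups were tight, with SDs of 9.92 and 4.03 CPM around means of 105 and 17.4 CPM.

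The remaining pair acts on ions and vesicles. Slc9b2 (chr3:135307700-135345387), a sodium and proton exchanger induced during osteoclast differentiation, was at 73.2, 80.2, 41.0 and 41.3 CPM in PBS tumors and at 4.93, 7.23, 1.29, 10.7 and 4.59 CPM in 5-FU tumors. Rufy4 (chr1:74125541-74148223), a RUN and FYVE domain protein tied to autophagy and lysosome positioning, was at 11.6, 9.90, 10.6 and 11.3 CPM with PBS and at 1.01, 1.08, 0.178, 1.89 and 1.15 CPM with 5-FU. Neither gene's groups overlapped, and the means differed 10.2-fold for both.

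Macrophage genes did not show the same low level with 5-FU. Summed over the 8 macrophage markers, the median was 1738 CPM (range 1628 to 2390) in PBS tumors and 2679 CPM (range 2237 to 8074) in 5-FU tumors, and the F4/80 gene Adgre1 averaged 75.6 ± 14.4 CPM (SD, n = 4) and 254 ± 162 CPM (SD, n = 5), whereas Cd68 averaged 201 ± 11.8 and 168 ± 57.0 CPM. Measured against the mean of these markers, the median log2 CPM difference of the 10 genes between 5-FU and PBS was -3.49, and against the leukocyte gene Ptprc it was -3.56, where unscaled log2 CPM gave -2.62. Fibroblast markers also had a higher sum in 5-FU tumors, with a median of 16244 CPM (range 13143 to 20781) against 9154 CPM (range 4719 to 11949) with PBS. Skeletal muscle markers had medians of 1083 CPM (range 7.91 to 1307) and 137 CPM (range 101 to 167). The mesothelial sum was lower with 5-FU, at 120 CPM (range 46.8 to 178) against 312 CPM (range 273 to 361), while the mean log2 CPM of that list was -0.43 and -0.26. The mitochondrial share of the counts, a sign of RNA quality, also moved with treatment, at 1.53% to 2.37% in PBS tumors and 2.72% to 6.80% in 5-FU tumors, without overlap. It was 2.69% to 4.82% in ICB tumors. The part of these cell types and of RNA quality in the difference was not tested.

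**Figure D2:**
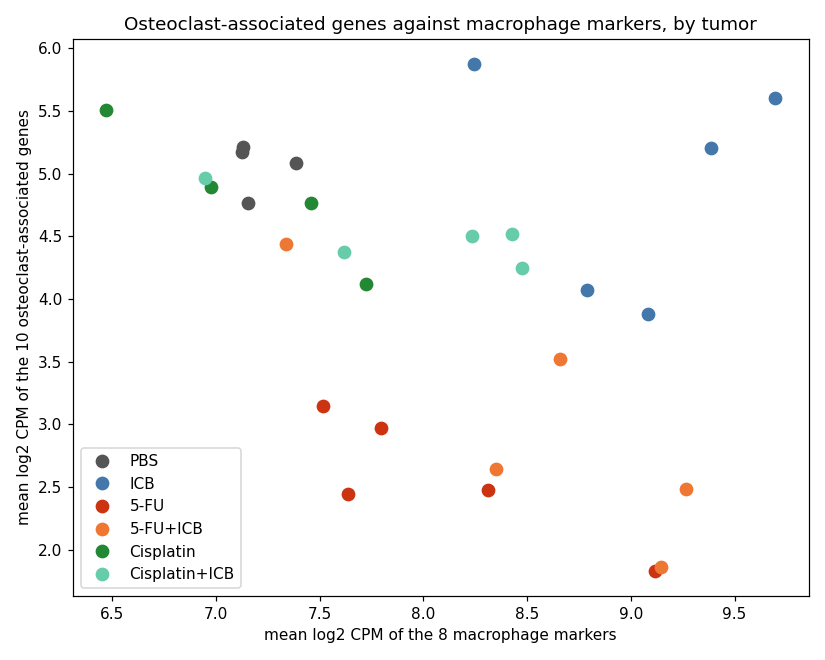
Mean log2 CPM of the 10 osteoclast-associated genes (y axis) against mean log2 CPM of the 8 macrophage markers (x axis), 1 point per tumor, colored by treatment. The 5-FU tumors lie between 1.83 and 3.15 on the y axis, under every PBS tumor (4.77 to 5.21), while their macrophage means (7.52 to 9.12) lie above those of the PBS tumors (7.12 to 7.39).

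Whether 5-FU made the same difference in tumors that also received ICB was asked of 5-FU+ICB and ICB tumors. These lie outside the contrast of 5-FU with PBS. The genes were, however, chosen with earlier results of these data known, so the comparison is no independent check. All 10 genes again had fold changes below 0, with a median of -1.84 on the log2 scale against 0.02 over all genes, yet only Atp6v0d2 was called by edgeR, where 0.162% of all genes were called lower and 0.0670% higher. Of the 10 genes, 8 had an unadjusted p-value under 0.05, all but Dcstamp and Nfatc1, as did 10.9% of all genes. Atp6v0d2 was at 52.1, 58.0, 155, 115 and 127 CPM in ICB tumors and at 21.9, 48.1, 25.2, 29.3 and 20.5 CPM in 5-FU+ICB tumors. Every 5-FU+ICB tumor was under every ICB tumor, as for 1.67% of all genes, and the fold change of -1.80 on the log2 scale had a standard error of 0.28 (adjusted p = 0.0161). The call was lost without ICB replicate 4 (adjusted p = 0.0569), without 5-FU+ICB replicate 1 (adjusted p = 0.0563) and when only these 2 groups were fitted (adjusted p = 0.177), and it held in 15 of 18 alternatives, over which the adjusted p ran from 8.68e-07 to 0.177. Without 5-FU+ICB replicate 5, the tumor with the highest mitochondrial share, Atp6v0d2 was still called, alone of the 10 (adjusted p = 0.0300).

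Macrophage markers summed to a median of 4875 CPM with 5-FU+ICB (range 1832 to 8483) against 6753 CPM with ICB (range 3527 to 9795), and Csf1r averaged 524 ± 226 and 927 ± 346 CPM (SD, n = 5 each). Measured against these markers, the median log2 CPM difference of the 10 genes was -1.69, and against Ptprc -2.11, where the unscaled value was -2.18. The part of these cells in the difference was not tested.

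In 7 further genes, all but Dcstamp and Nfatc1, replicate 2 of the 5-FU+ICB group reached into the ICB range, joined by replicate 5 for Rufy4 and replicate 4 for Calcr. Acp5 was at 253, 212, 748, 783 and 568 CPM with ICB and at 107, 307, 65.5, 149 and 128 CPM with 5-FU+ICB. Replicate 2 was the only 5-FU+ICB tumor above the lowest ICB tumor, and the fold change of -1.77 had a standard error of 0.40 (adjusted p = 0.0718). Ctsk was at 280, 299, 964, 1049 and 640 CPM with ICB and at 107, 426, 65.6, 184 and 65.6 CPM with 5-FU+ICB. Replicate 2 again reached into the ICB range, and the fold change of -1.94 had a standard error of 0.47 (adjusted p = 0.0992). Without that tumor, edgeR called 3 of the 10 genes, Atp6v0d2, Acp5 (adjusted p = 0.0386) and Ctsk (adjusted p = 0.0279), among 40 genes in all (25 lower). DESeq2, the tool of the study, called 6 of them with all tumors in, adding Oscar, Slc9b2 and Calcr, among 320 genes (152 lower) against 41 with edgeR.

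Slc9b2 was at 12.6, 9.25, 50.4, 64.2 and 30.2 CPM with ICB and at 2.68, 19.8, 1.46, 7.73 and 2.70 CPM with 5-FU+ICB. Its log2 fold change was -2.28 (95% interval -3.70 to -0.85, adjusted p = 0.183). Oscar was at 2.18, 1.89, 6.24, 16.1 and 6.01 CPM with ICB and at 0.223, 2.64, 0.122, 1.05 and 0.05 CPM with 5-FU+ICB. In both genes 4 of the 5 5-FU+ICB tumors were under the lowest ICB tumor, which was so for at least 4 tumors in 6 of the 10 genes. The share of all genes with at least 4 such tumors is not given, so this count is a description. For Oscar the log2 fold change was -2.97 (95% interval -4.82 to -1.11, adjusted p = 0.179). Rufy4, Ocstamp and Calcr had fold changes of -1.76, -1.88 and -2.86, with adjusted p-values of 0.336, 0.285 and 0.131.

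Dcstamp and Nfatc1 were the exceptions here too. Dcstamp was at 8.04, 21.8, 12.9, 20.2 and 17.7 CPM with ICB and at 11.4, 14.6, 9.57, 11.7 and 13.7 CPM with 5-FU+ICB. The 5-FU+ICB tumors all lay within the ICB range, and the log2 fold change was -0.41 (95% interval -0.995 to 0.18). They also all lay above every tumor treated with 5-FU alone, with means of 12.2 ± 1.99 and 5.34 ± 1.98 CPM (SD, n = 5 each). Dcstamp was the only gene of the 10 for which this was so, and the share of all genes with that pattern is not given. All 10 genes had fold changes above 0 in 5-FU+ICB against 5-FU, with a median of 0.73 on the log2 scale. Nfatc1 was at 69.8, 79.7, 185, 129 and 129 CPM with ICB and at 134, 71.9, 67.9, 86.9 and 121 CPM with 5-FU+ICB. Those ranges overlapped, and the log2 fold change was -0.29 (95% interval -0.93 to 0.35).

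**Figure D3:**
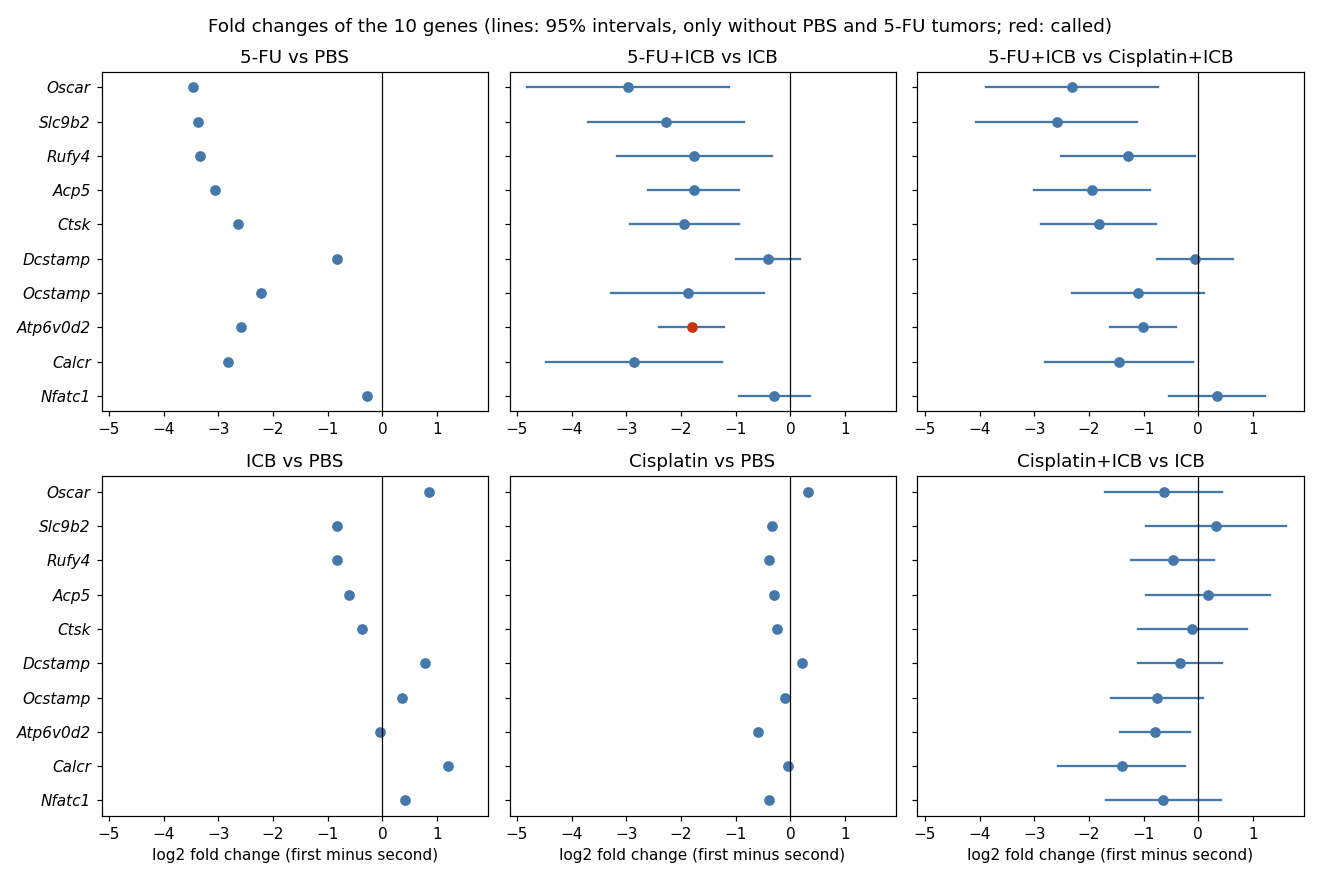
Log2 fold changes from edgeR (x axis, first group minus second) of the 10 genes (y axis) in 6 comparisons, with points for estimates, red for the gene called and lines for 95% intervals, which are left out where PBS tumors enter. Estimates for 8 genes are at or under -1.76 in 5-FU+ICB vs ICB, and those for ICB vs PBS and Cisplatin vs PBS fall on both sides of 0.

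With ICB alone the genes varied widely between tumors. Against PBS, 5 of the 10 had fold changes below 0 and 5 above, with a median of 0.16, and none had groups that did not overlap with ICB lower, where 21.6% of all genes did. The ICB tumors fell apart among themselves: the mean log2 CPM of the 10 genes was 4.07 and 3.88 in replicates 1 and 2 and 5.60, 5.87 and 5.20 in the others. Macrophage markers summed to a median of 6753 CPM with ICB (range 3527 to 9795) against 1738 CPM with PBS. Measured against them, the median log2 CPM difference of the 10 genes between ICB and PBS was -1.90, where the unscaled value was -0.06.

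Cisplatin tumors, the other chemotherapy group, overlapped the PBS tumors for all 10 genes. The median fold change of the 10 genes was -0.27 on the log2 scale, 8 lay below 0, and none had separate groups, a pattern that 1.91% of all genes showed with cisplatin lower. Few genes of any kind differed here. EdgeR called 0 of the 17819 genes tested, against 4115 in 5-FU against PBS, and 317 had an unadjusted p-value under 0.05. Acp5 was at 286, 1049, 556 and 672 CPM and Ctsk at 339, 1103, 605 and 772 CPM in the cisplatin tumors. Replicate 1 was the lowest and replicate 2 the highest for both. Atp6v0d2 was at 41.6, 107, 65.2 and 65.3 CPM, with 3 of the 4 tumors under the lowest PBS tumor, and its fold change was the lowest of the 10 at -0.58. Cisplatin and 5-FU were compared with the same PBS tumors, so these values are set side by side and not tested against each other.

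In tumors given ICB, cisplatin was compared with ICB alone. EdgeR called 0 of the 10 genes, 2 had an unadjusted p-value under 0.05 (Atp6v0d2 and Calcr), and DESeq2 called 0. Of all genes 0% were called lower by edgeR, DESeq2 called 56 and edgeR's unadjusted p-value was under 0.05 for 2839 (15.9%). The median fold change was -0.55, and no gene had separate groups, where 1.29% of all genes did with cisplatin+ICB lower. Atp6v0d2 was at 85.6, 62.2, 48.7, 53.1 and 42.2 CPM in cisplatin+ICB tumors, a log2 fold change of -0.80 (95% interval -1.43 to -0.16, adjusted p = 0.291). Calcr was at 0.848, 1.12, 0.707, 1.11 and 0.527 CPM against 1.02, 0.200, 3.24, 4.84 and 2.19 CPM with ICB, a log2 fold change of -1.40 (95% interval -2.56 to -0.25, adjusted p = 0.292). For Calcr the cisplatin+ICB tumors lay inside the ICB range. Without replicate 1 of the cisplatin+ICB group, fold changes turned from 0.32 to -0.67 for Slc9b2 and from 0.18 to -0.76 for Acp5, with adjusted p-values of 0.647 and 0.560. Ctsk moved from -0.11 to -0.77, Nfatc1 from -0.64 to -0.32 and the median of the 10 genes from -0.55 to -0.67. Macrophage markers summed to a median of 3161 CPM with cisplatin+ICB (range 2090 to 3942) against 6753 CPM with ICB (range 3527 to 9795). Measured against these markers, the median log2 CPM difference of the 10 genes turned from -0.33 to 0.77, and against Ptprc to 0.37. The part of these cells in the difference was not tested.

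When ICB was added to cisplatin, edgeR and DESeq2 both called 0 of the 10 genes, and only Rufy4 had an unadjusted p-value under 0.05 (log2 fold change -0.91, adjusted p = 0.277). The median fold change was -0.16, 0% of all genes were called lower by edgeR (2530, or 14.2%, in either direction at an unadjusted p-value under 0.05, and 766 by DESeq2), and 2.17% of all genes but none of the 10 had separate groups with the combination lower. Replicate 1 of the cisplatin+ICB group held 1719 CPM of Acp5 against 254 to 339 in the other 4 tumors, 1511 CPM of Ctsk against 337 to 393, 127 CPM of Slc9b2 against 16.2 to 24.1, and 7.74 CPM of Nfatc1 against 85.8 to 107. Without it edgeR called 2114 genes in this comparison, 637 of them lower, and 0 of the 10, with the lowest adjusted p among them at 0.0836 for Acp5 (log2 fold change -1.06 in place of -0.14). Slc9b2 moved from -0.15 to -1.13, Ctsk from -0.23 to -0.87 and Nfatc1 from 0.13 to 0.48, with adjusted p-values of 0.128, 0.136 and 0.306, and the median of the 10 genes from -0.16 to -0.26. Macrophage markers had a median sum of 1731 CPM with cisplatin (range 974.9 to 2316) and 3161 CPM with the combination, and Ptprc averaged 114 ± 41.1 CPM (SD, n = 4) and 243 ± 108 CPM (SD, n = 5). Against the macrophage markers the median log2 CPM difference of the 10 genes was -1.04, and against Ptprc -1.28, where the unscaled value was -0.26. The part of leukocytes in these values was not tested.

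The 2 chemotherapies could be compared directly in the combination groups. Fold changes of 5-FU+ICB against cisplatin+ICB tumors were below 0 for 9 of the 10 genes, all but Nfatc1, with a median fold change of -1.37, but edgeR called 0 of them, while 7 had an unadjusted p-value under 0.05, as did 25.7% of all genes. Of all genes, 0.194% were called lower and 0.103% higher, and 0.923% had separate groups with 5-FU+ICB lower, but none of the 10. The smallest adjusted p-values were 0.0651 for Acp5 (log2 fold change -1.94, 95% interval -3.00 to -0.88), 0.0687 for Slc9b2 (-2.59, -4.06 to -1.12), 0.0687 for Ctsk (-1.82, -2.87 to -0.77) and 0.0727 for Atp6v0d2 (-1.01, -1.61 to -0.40). For 8 genes 4 of the 5 5-FU+ICB tumors were under the lowest cisplatin+ICB tumor, and the tumor that was not was replicate 2. The share of all genes with 4 such tumors is not given, so this count too is a description. Without that tumor edgeR called 8 of the 10 genes, all but Dcstamp and Nfatc1, among 2146 genes in all (983 lower), against 55 with every tumor in. Without cisplatin+ICB replicate 5 it called 4, Slc9b2, Acp5, Ctsk and Atp6v0d2, among 1128 (673 lower). DESeq2 called 5 with all tumors in, those 4 and Oscar, among 1567 (932 lower). Without cisplatin+ICB replicate 1, fold changes shrank to -0.97 for Acp5, -1.56 for Slc9b2 and -1.12 for Ctsk, the median of the 10 genes was -1.14, and 0 of the 10 were called (11 of all genes). Calls over all genes ranged from 1 to 2146 when 1 tumor was left out, and without 5-FU+ICB replicate 5 there were 3, none of the 10 among them. Macrophage markers summed to a median of 4875 CPM with 5-FU+ICB (range 1832 to 8483) against 3161 CPM with cisplatin+ICB (range 2090 to 3942). Ptprc averaged 8.41 and 7.79 log2 CPM, and Csf1r 524 ± 226 and 339 ± 172 CPM (SD, n = 5 each). The part of these cells in the difference was not tested.

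Ordered by mean log2 CPM, 5-FU and 5-FU+ICB were the lowest 2 groups for Oscar, Slc9b2, Rufy4, Acp5, Ctsk, Ocstamp, Atp6v0d2 and Calcr. The gap from these groups up to the next one was 2.90 log2 units in Oscar, 2.44 in Slc9b2, 2.00 in Rufy4, 1.87 in Ctsk, 1.86 in Calcr, 1.77 in Ocstamp, 1.66 in Acp5 and 1.04 in Atp6v0d2. Low 5-FU tumors and higher PBS tumors were what the genes were chosen for, so these gaps are a description and were not set against the spread. In Atp6v0d2 the 5-FU group lay a further 0.70 log2 units under the 5-FU+ICB group. Among the upper 4 groups of these 8 genes, neighbors were at most 0.65 log2 units apart, and each gap was within the SD of at least 1 of the groups beside it. Groups that were not neighbors could differ more. Cisplatin+ICB against PBS had a median fold change of -0.42 over the 10 genes, with 8 below 0. Every cisplatin+ICB tumor lay under every PBS tumor for Rufy4 (means 4.39 and 10.9 CPM, log2 fold change -1.29) and Atp6v0d2 (58.3 and 105 CPM, -0.83). The share of all genes with that pattern is not given. Dcstamp was lowest in the 5-FU group, 0.87 log2 units under PBS, with 5-FU+ICB second from the top, and the Nfatc1 groups lay 0.10 to 0.27 log2 units apart from one neighbor to the next. Without replicate 1 of the cisplatin+ICB group, the gap above the 5-FU and 5-FU+ICB groups was 2.08 log2 units in Slc9b2, 1.47 in Ctsk, 1.14 in Acp5 and 0.89 in Atp6v0d2. For Nfatc1 the cisplatin+ICB group then moved from the lowest place to the third, with a mean of 6.54 log2 CPM in place of 5.82, level with 5-FU+ICB at 6.54.

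Across the 28 tumors, with each group's mean subtracted, the genes varied together to different degrees. The 8 genes other than Dcstamp and Nfatc1, set apart after their values were seen, had a median Pearson r of 0.73 over their 28 pairs (range 0.44 to 0.93), and 0.64 without the 2 tumors farthest from the median, 5-FU+ICB replicates 2 and 3. Pairs with Dcstamp had a median of 0.23 and pairs with Nfatc1 of -0.15, which was -0.07 (lowest -0.09) without replicate 1 of the cisplatin+ICB group. The points share libraries and scaling, and these values are a description.

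**Figure D4:**
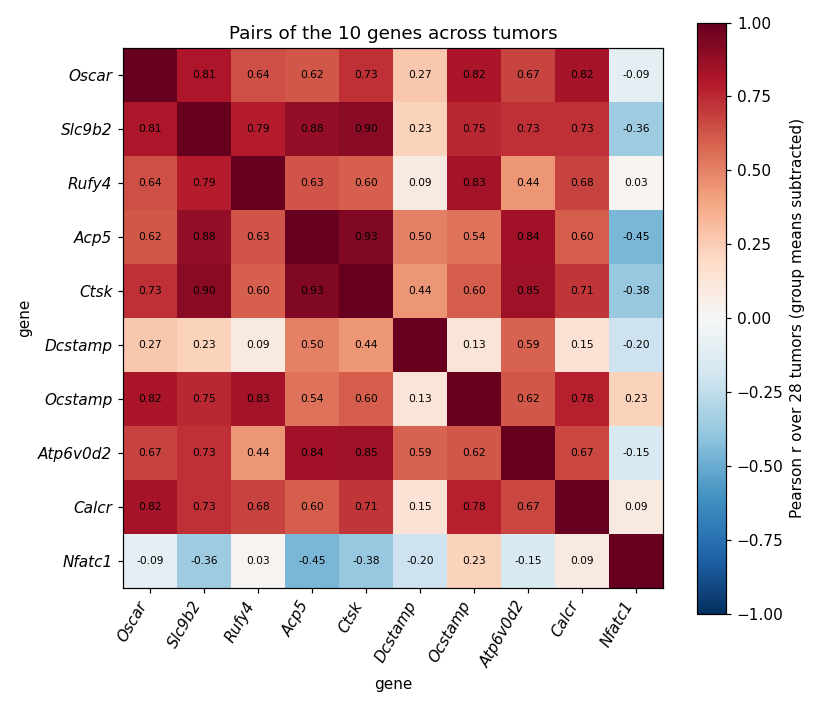
Pearson r of log2 CPM between each pair of the 10 genes over 28 tumors after subtraction of group means, printed in each cell and shown by color (red positive, blue negative). The block without Dcstamp and Nfatc1 runs from 0.44 to 0.93, and the Nfatc1 row and column hold the negative values down to -0.45 (Acp5), which is -0.08 without cisplatin+ICB replicate 1.

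The mean of the 10 genes (as z-scores) also ran against several marker lists within groups, immune and other. Over 28 tumors r was -0.58 (Spearman's rho -0.52) with the macrophage markers, -0.55 with monocyte, -0.52 with neutrophil, -0.61 with dendritic cell and -0.52 with T cell markers. It was -0.51 with chondrocyte markers and -0.46 with skeletal muscle markers, so the negative values were not limited to immune lists. Proliferation markers gave 0.53, while osteoblast and osteocyte markers gave 0.06. Without the 2 tumors farthest from the median the macrophage value was -0.43, the chondrocyte value -0.52 and the skeletal muscle value -0.27. In the 5-FU+ICB group, replicate 2 had the highest mean of the 10 genes (4.44 log2 CPM) and the lowest macrophage mean (7.34), and replicate 3 the lowest (1.86) with a macrophage mean of 9.15. Single genes ran from -0.70 for Rufy4 and -0.69 for Slc9b2 to 0.38 for Nfatc1 with the macrophage markers. All 13 marker lists were compared and lie on the same libraries, and which cells carry the 10 genes was not measured.

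Among 13325 other genes with a mean count of at least 50, those most like the 10 by this measure (Pearson r over 28 tumors, group means subtracted) were Mt3 (r = 0.88), Nyap2 (0.84), Serpind1 (0.83), Mmp9 (0.80), Cyp2s1 (0.77), Mst1r (0.77), Bdh2 (0.74), Arfgef3 (0.73), Pgm3 (0.72) and Cfap45 (0.72). Mmp9 encodes a gelatinase that osteoclasts secrete, and Mst1r a receptor tyrosine kinase of macrophages and epithelia. In 5-FU against PBS, a difference that the ranking did not use, edgeR called 5 of these 10 genes lower, against 13.0% of all genes. Cyp2s1, a cytochrome P450, fell from 35.9 to 5.00 CPM (log2 fold change -2.83, adjusted p = 0.00398), and Mst1r from 11.7 to 2.48 CPM (-2.23, adjusted p = 0.00943). Serpind1, the heparin cofactor, fell by 2.43 on the log2 scale, Mt3, a metallothionein, by 2.14 and Bdh2, a dehydrogenase, by 1.40. Mmp9 was at 634 ± 150 CPM (SD, n = 4) with PBS and 234 ± 70.8 CPM (SD, n = 5) with 5-FU, without overlap but not called (-1.42, adjusted p = 0.0680). In 5-FU+ICB against ICB none of these genes was called by edgeR, and the lowest adjusted p was 0.0967 for Cyp2s1 (-2.10).

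The rest of the osteoclast pathway was followed through 99 other genes in 10 lists, 98 of which passed the filter. The lists were chosen with earlier results of these data known, so their counts and p-values are no independent check. In 5-FU against PBS edgeR called 15 lower and 7 higher, 15.3% lower against the 13.0% of all genes, with a median fold change of 0.02. Over the lists as a whole the share was near the background. Scaled by library size alone, 12 were called lower of 27 called. Counts depended on the tumors: without PBS replicate 1 it was 12 called genes (11 lower), without PBS replicate 2 it was 10 (9 lower), and in the model of all 6 groups 9 (7 lower). No interaction of 5-FU with ICB was called by edgeR among the 98 genes, 22 of which had an unadjusted p-value under 0.05 against 23.9% of all genes, where 0.0893% of all genes were called, and the smallest adjusted p was 0.0664.

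The cytokines that start the program and their receptors were not called. Of the 6 ligands and receptors of RANKL and M-CSF, edgeR called 0 in 5-FU against PBS, DESeq2 called 0 as well, and no unadjusted p-value was under 0.05. RANKL itself, Tnfsf11, was at 7.55 ± 1.29 CPM with PBS and 6.53 ± 1.84 CPM with 5-FU, and its receptor RANK, Tnfrsf11a, at 35.6 ± 12.9 and 34.2 ± 5.86 CPM (SD, n = 4 and 5). The decoy receptor osteoprotegerin, Tnfrsf11b, was at 1.92 and 2.00 CPM, M-CSF, Csf1, at 255 and 318 CPM, IL-34, Il34, the other ligand of the M-CSF receptor, at 40.7 and 32.0 CPM, and that receptor, Csf1r, at 295 and 397 CPM. Their fold changes lay between -0.35 and 0.46 on the log2 scale. In 5-FU+ICB against ICB none was called either, with Tnfsf11 highest at 1.30 (adjusted p = 0.213) and Csf1r lowest at -0.82 (adjusted p = 0.418).

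Of the 8 costimulatory adaptors and kinases and the 12 RANK signaling genes edgeR called none in 5-FU against PBS, with 1 and 2 lower and 2 and 5 higher at an unadjusted p-value under 0.05 (40.4% of all genes in either direction), while DESeq2 called 2 and 3 higher. Among 12 transcription factors 2 were called higher. Fos, the AP-1 subunit upstream of NFATc1, rose from 35.0 ± 9.52 to 147 ± 122 CPM (log2 fold change 2.11, adjusted p = 0.0198), and Tfe3, a relative of MITF, rose by 0.60 (adjusted p = 0.0429). Neither was called in 5-FU+ICB against ICB, with Fos at 30.4 ± 25.7 and 44.3 ± 17.6 CPM (log2 fold change -0.55, adjusted p = 0.768) and Tfe3 at -0.23 (adjusted p = 0.720). The interaction of 5-FU with ICB was -2.65 for Fos (adjusted p = 0.0761) and -0.83 for Tfe3 (adjusted p = 0.0993).

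Several subunits of the proton pump that Atp6v0d2 belongs to were lower with 5-FU. Of 15 other V-ATPase subunits 8 were called lower and 1 higher, where 13.0% of all genes were called lower and 9.98% higher. The list median was -0.67 against -0.01 over all genes. Atp6v1g1 fell from 194 ± 54.1 to 95.2 ± 12.2 CPM (log2 fold change -1.04, adjusted p = 0.00296), Atp6v0b fell by 0.97 (adjusted p = 0.0139) and Atp6v1b2 by 0.88 (adjusted p = 0.0102) on the log2 scale. Atp6v0a1, a membrane sector isoform, was the exception and rose by 0.80 (adjusted p = 0.0150). Subunits of this pump are made by most cell types. In 5-FU+ICB against ICB none of the 15 was called, 4 were lower at an unadjusted p-value under 0.05 and the list median was -0.22.

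Of 5 further genes high in osteoclasts, 4 were called lower with 5-FU, with a median of -1.12. Ckb, a creatine kinase, fell from 68.9 ± 6.65 to 25.0 ± 6.87 CPM (log2 fold change -1.46, adjusted p = 0.00312), Jdp2, an AP-1 family repressor, by 1.17 (adjusted p = 0.00879) and Slc37a2, a sugar phosphate carrier, by 1.12 (adjusted p = 0.0113). Among 12 genes of adhesion, acid, chloride and matrix breakdown, 2 were called lower. Car2, carbonic anhydrase that supplies the protons, fell by 1.01 (adjusted p = 0.00441) and Snx10, a sorting nexin needed for the ruffled border, by 0.84 (adjusted p = 0.00846). The median of that list was -0.03 and turned positive, to 0.02 and 0.08, under DESeq2's size factors and library size alone.

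Of 7 fusion genes 1 was called lower, Cd9, a tetraspanin (log2 fold change -0.75, adjusted p = 0.0270, not called under library size alone), and 2 higher, Sh3pxd2a, a podosome scaffold (0.99, adjusted p = 0.0475), and Cd44, a hyaluronan receptor (0.67, adjusted p = 0.0206). Among 17 tested relatives of the 10 genes, such as other NFAT proteins and cathepsins, 1 was called. Nfatc2 rose from 7.45 ± 4.03 to 34.4 ± 14.96 CPM (log2 fold change 2.25, adjusted p = 0.00355), without overlap, where Nfatc1 had -0.29. With ICB it was at 45.0 ± 15.3 CPM in 5-FU+ICB and 48.2 ± 17.9 CPM in ICB tumors (-0.09, adjusted p = 0.955), and its interaction of -2.34 gave the smallest adjusted p of the pathway genes, 0.0664.

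**Figure D5:**
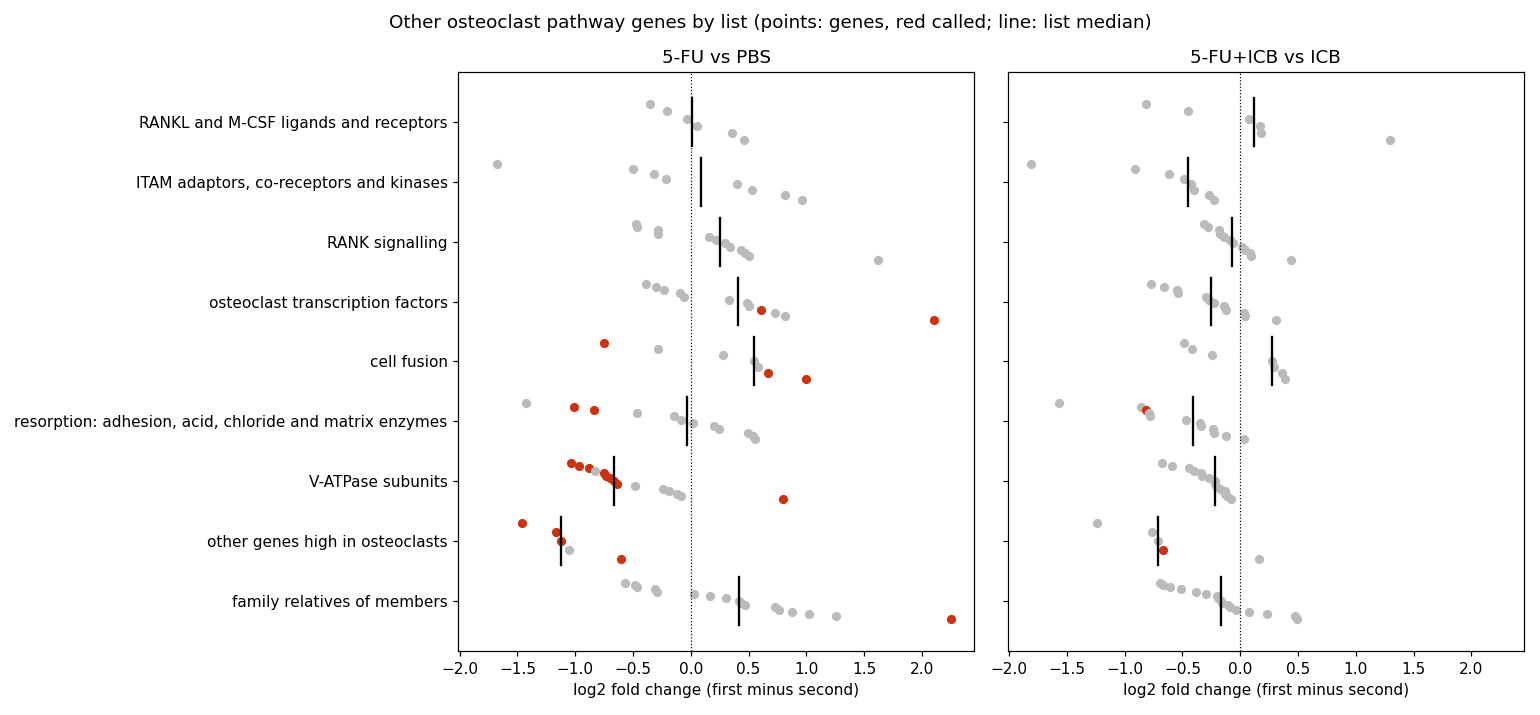
Log2 fold changes (x axis) of osteoclast pathway genes in 9 of the 10 lists (y axis) in 5-FU vs PBS (left) and 5-FU+ICB vs ICB (right), with a point per gene, red for genes called by edgeR and a black line for the list median. In the left panel red points gather below 0 for the V-ATPase subunits (8 of 15) and the other genes high in osteoclasts (4 of 5). Of all genes 13.0% were called lower there. The right panel holds 2 red points.

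In 5-FU+ICB against ICB edgeR called 2 of the 98 genes lower and 0 higher, where 0.162% of all genes were called lower and 0.0670% higher. Of the 98 genes, 20 lower and 2 higher had an unadjusted p-value under 0.05, as did 10.9% of all genes in either direction. The 2 called genes were outside the naming rule and were chosen after their values were seen. Tcirg1, the proton pump subunit mutated in osteopetrosis, which stands in the list of acid and matrix genes and not among the 15 subunits above, fell from 216 ± 26.9 to 123 ± 32.3 CPM (SD, n = 5 each, log2 fold change -0.81, adjusted p = 0.0362). Gpr137b, a lysosomal membrane protein, fell from 74.3 ± 12.2 to 46.5 ± 5.50 CPM (log2 fold change -0.67, adjusted p = 0.0259). Both had separate groups, as did 7 of the 98 genes and 1.67% of all genes with 5-FU+ICB lower. The count of called genes was 0 without ICB replicates 2, 4 or 5, and without 5-FU+ICB replicates 1 or 3. It was 1 without ICB replicate 3, and DESeq2 called 7, among 320 of all genes. Against PBS, ICB alone had 47 of the 98 genes called higher and 4 lower, where 19.0% of all genes were called higher and 18.8% lower. Among those higher was Csf1r, with a rise of 1.68 on the log2 scale between means of 295 and 927 CPM (adjusted p = 0.00365).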

How the data were processed

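RNA of 28 whole tumors in 6 groups was sequenced as single-end reads. Per the labels and the study's methods, the authors converted reads with bcl2fastq 2.20.0.422, quantified transcripts with kallisto 0.46.0 against a GRCm38 (mm10) annotation and summed them to genes with tximport. The authors deposited each gene's estimated counts, made with kallisto and tximport and not normalized, in 2 matrices of 55341 gene names, of 19 tumors (5-FU groups) and 18 (cisplatin groups), with the same values for the 9 shared PBS and ICB tumors. Since 23.7% of the entries carried decimals, all were rounded to whole numbers. Gene names turned into dates (26 rows) were left as they stood.

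From these counts, edgeR 4.0.16 (R 4.3.3, limma 3.58.1) was run with its filter on low counts, TMM scaling and the quasi-likelihood test, on all groups of a matrix, or on all 6 groups joined to compare the combinations. Benjamini-Hochberg adjustment covered all genes tested, and genes were called at an adjusted p under 0.05 where the log2 fold change was also beyond 0.5 in size. DESeq2 1.42.0 was an alternative, beside other scalings, filters, models, prior counts, a replicate block and leaving out each tumor. Levels are CPM with TMM scaling over 28 tumors, and log2 CPM used a prior count of 2 (alternative 0.5). The script was tested on simulated data.

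The 10 genes and all gene lists were chosen with earlier results of these data known. Named were the 10 genes, the RANKL and M-CSF list, up to 3 genes a direction called in 5-FU against PBS from each other list if their mean count reached 50, and the 10 genes most correlated with the members. Coordinates are GRCm38. The result of 1 pathway list is not reported here on its own, and its genes are part of the counts over all lists.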

Additional observations from a re-analysis of the deposited data

Results flagged for a closer look

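Over 60 sets of 1 gene in 1 group, 7 held a tumor far from the others by Dixon's criterion, which chance gives in about 1 of 20 groups. Of these, 4 were replicate 1 of the cisplatin+ICB group, with log2 CPM of 6.986 for Slc9b2, 10.75 for Acp5 and 10.56 for Ctsk, all high, and of 2.965 for Nfatc1, low. The same tumor had the lowest fibroblast sum of its group, at 2242 CPM against 7458 to 9340 CPM, and the part of its makeup in these values was not tested. The remaining 3 were all low, namely Rufy4 at -2.018 in 5-FU replicate 3, Dcstamp at 2.651 in PBS replicate 4 and Calcr at -0.5277 in cisplatin replicate 1.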

How the results depend on the processing

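In 5-FU+ICB against ICB, where 1 of the 10 genes was called, DESeq2 called 6, the 2 groups alone 0 and an unadjusted p-value 8, and leaving out 1 tumor gave 0 to 3. In 5-FU+ICB against cisplatin+ICB, where 0 were called, DESeq2 called 5, an unadjusted p-value 7, and leaving out 1 tumor gave 0 to 8. In cisplatin+ICB, an unadjusted p-value called 2 against ICB and 1 against cisplatin. Other pathway genes in 5-FU+ICB against ICB went from 2 to 4 (library size alone), 0 (no filter), 0 (replicate block), 7 (DESeq2) and 0 (the 2 groups alone), and to 0 to 3 without 1 tumor. In 5-FU against PBS they went from 22 to 9 with all 6 groups joined and to 10 to 33 without 1 tumor. The cause was not tested.

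The median log2 CPM difference of the 10 genes, relative to macrophage markers and to Ptprc, moved from -2.62 to -3.49 and -3.56 in 5-FU against PBS, from -0.06 to -1.90 and -2.03 in ICB against PBS, from -0.33 to 0.77 and 0.37 in cisplatin+ICB against ICB, and from -0.26 to -1.04 and -1.28 in cisplatin+ICB against cisplatin. Without 1 tumor it ran from -2.75 to -2.52, from -0.28 to 0.19, from -0.61 to -0.10 and from -0.43 to -0.12 in these, from -0.52 to -0.05 in cisplatin against PBS, from -2.67 to -1.79 in 5-FU+ICB against ICB and from -2.33 to -1.40 in 5-FU+ICB against cisplatin+ICB.

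Over all genes, calls went from 41 to 320 with DESeq2, 23 with at least 10 counts in every tumor, 17 with no filter, 8 with the replicate block and 0 with the 2 groups alone in 5-FU+ICB against ICB (1 to 83 without 1 tumor), from 55 to 1567 with DESeq2 and 0 with the 2 groups alone in 5-FU+ICB against cisplatin+ICB, from 0 to 766 with DESeq2 and 27 joined in cisplatin+ICB against cisplatin (2114 without cisplatin+ICB replicate 1, 536 without replicate 3), from 0 to 56 with DESeq2 in cisplatin+ICB against ICB, and from 4115 to 2469 with no filter and 825 joined in 5-FU against PBS (1436 to 4741 without 1 tumor). Replicate numbers did not pair the tumors (correlations of same-numbered tumors -0.63 to 0.35), and with the number as a block 1 of the 10 genes was called in 5-FU+ICB against ICB, as without it. Levels of Oscar, Calcr and Rufy4 near the floor of 3 counts limit their fold changes.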
